A study of Mus musculus with 8 samples.

Results

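The 8 genes described here encode the interleukin-10 and TGF-β regulatory cytokines and their receptors. They are Il10, its receptor chains Il10ra and Il10rb, Tgfb1, the TGF-β receptors Tgfbr1 and Tgfbr2, and Il27 and Ebi3, which encode the subunits of interleukin-27. They were taken by name from the 24405 genes named in the tables of the series.

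The series profiled mouse heart, liver and kidney allografts by Microwell-seq, a single cell method in which cells and barcoded beads are trapped in agarose wells and 3′ transcript ends are counted as unique molecular identifiers (UMIs). Organs of BALB/c mice (male, 8 weeks old in the labels) were grafted into C57BL/6 recipients that got no immunosuppressive drug, and material was taken on day 7. For each organ there were peripheral blood mononuclear cells (PBMC) of the recipient and tissue-infiltrating lymphocytes (TIL) of the graft, and for liver and kidney also the solid organ (parenchymal cells, PC). The methods name 2 recipients per organ, each of the 8 conditions here was 1 library, and whether animals were pooled was not given in the sources used here. There was no ungrafted control among the libraries and no replicate of any condition, so no test between conditions was possible. Donor and recipient cells were not separated.

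Interleukin-10 restrains antigen presentation and inflammatory cytokine production and is made by regulatory and effector T cells as well as by myeloid and B-lineage cells. Its receptor pairs the ligand-binding chain IL-10Rα, found mainly on leukocytes, with the widely expressed chain IL-10Rβ that other cytokines of the family also use. TGF-β1 is secreted in a latent form, is freed at the cell surface or in matrix, and signals through a kinase receptor complex of TGFBR2 and TGFBR1 to SMAD proteins. Interleukin-27, a dimer of the p28 chain (Il27) and EBI3, is made by activated antigen-presenting cells and can induce interleukin-10 in T cells, whereas EBI3 paired with the p35 chain forms interleukin-35.

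In mouse GRCm38 Il10 lies at chr1:131019845-131024974 on the plus strand and Tgfb1 at chr7:25687002-25705077 on the plus strand. Il10ra (chr9:45253837-45269149, minus), Il10rb (chr16:91406164-91425834, plus), Tgfbr1 (chr4:47353222-47414931, plus) and Tgfbr2 (chr9:116084293-116175360, minus) encode the receptors. Ebi3 is at chr17:55952640-55957022 on the plus strand. Il27, at chr7:126589010-126594941 on the minus strand, overlaps the 3′ end of Apobr on the other strand by 103 bases, and the strand setting of the counting was not given in the sources used here, so reads from this overlap cannot be told apart. These coordinates are those of GENCODE M21, while the GENCODE release behind the deposited counts was not named in the sources used here. A UMI counts a transcript of the whole gene, with no exon resolved.

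A library held 10000 barcodes, of which 795 to 10000 had at least 500 UMIs and were taken as cells, with a median of 581 to 1501.5 UMIs per cell. The kidney libraries were the smallest, with 795 cells in PC, 1143 in PBMC and 2005 in TIL. The labels of the heart and liver TIL libraries went against organ markers. Alb, the liver albumin gene, had 1056 UMIs in the library labelled heart TIL and 0 in the library labelled liver TIL, while the atrial myosin gene Myl7 had 2 and 128. These libraries are therefore called by their labels, and the comparisons of organs that rest on them are also given with the labels exchanged. Between 123 and 617 barcodes recurred in each pair of libraries.

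Cells were assigned to classes by marker UMIs: CD4 T cells by Cd4 and CD3 genes, CD8 T cells by Cd8a or Cd8b1 and CD3 genes without Cd4, plasma cells by at least 5 Jchain UMIs with Mzb1, and Kupffer cells, macrophages, monocytes, neutrophils, NK, B, stromal and endothelial cells by marker sets. A class was described in a library with at least 20 of its cells. Levels are given as CPM (counts scaled to the same UMI total in every class), with the exact 95% Poisson interval, given in brackets, and ratios carry an exact conditional interval. Where a sum held 0 UMIs the limit given is the level or share that 3 UMIs or cells would give. All intervals and limits cover counting error only. The CD4 T gate was loose: 54 of 90 such cells in the library labelled heart TIL, 46 of 87 in that labelled liver TIL and 202 of 343 in liver PC also held a CD8 UMI, and 85, 80 and 275 had a lone Cd4 UMI. The T cell genes Trac, Trbc2, Cd28 and Lck were above the other cells in 3, 4 and 4 of 4 cases but at least 2-fold above them in 0, 3 and 1, and the median CD4-gated cell held 3, 4 and 3 macrophage-marker UMIs. The CD8 T gate was loose as well. Of its cells in the same libraries 2102 of 4447, 1611 of 3117 and 1630 of 6104 had a lone CD8 UMI. The median CD8-gated cell held 3 macrophage-marker UMIs in each, beside 0 in kidney TIL and 1 in kidney PC. In the 3 libraries 1, 3 and 3 of the 4 T cell genes were at least 2-fold above the other cells. In kidney TIL and kidney PC it was 0 and 1. Endothelial cells numbered at most 13 in a library and are not compared.

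Il10 was highest in CD4 T cells of the heart and liver graft libraries, while the kidney graft libraries had 12 (TIL) and 1 (PC) CD4 T cells and are not compared. In CD4 T cells it reached 136 CPM [76.0 to 224] in the library labelled heart TIL, 151 CPM [84.6 to 249] in that labelled liver TIL and 131 CPM [105 to 161] in liver PC. In CD8 T cells of the same libraries the levels were 34.6 [29.5 to 40.5], 17.2 [12.9 to 22.5] and 35.5 CPM [32.3 to 39.0]. The intervals of both T cell classes did not overlap in any of these libraries. The ratio of CD4 to CD8 T cells was 3.92 [2.14 to 6.66], 8.81 [4.61 to 15.9] and 3.68 [2.90 to 4.62]. The fourth library with enough CD4 T cells, kidney PBMC, had 0 Il10 UMIs in 22 CD4 T cells, which allowed up to 100 CPM, beside 4.60 CPM in its CD8 T cells.

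**Figure D1:**
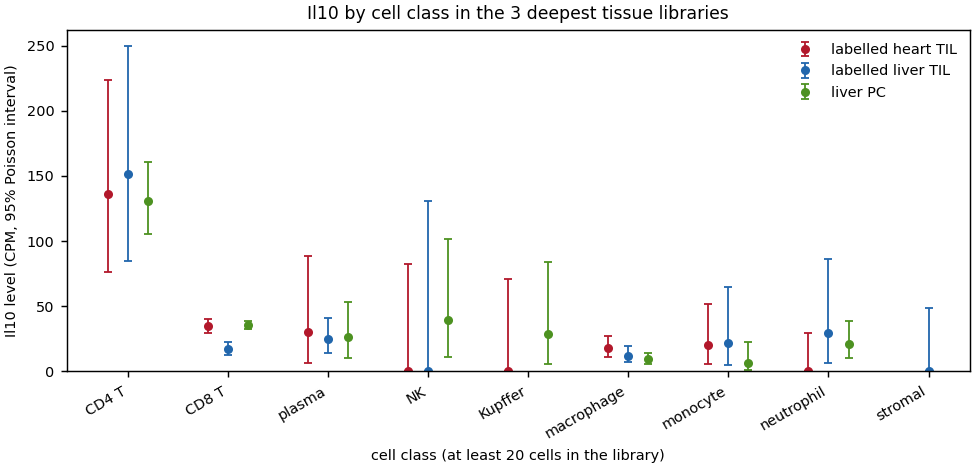
Il10 level in CPM (vertical axis) by cell class (horizontal axis) in the libraries labelled heart TIL, liver TIL and liver PC, where points are levels and bars exact 95% Poisson intervals. CD4 T cells, at 131 to 151 CPM, lay above CD8 T cells, at 17.2 to 35.5 CPM, with no overlap of the bars.

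Over the 4 libraries, weighted equally, Il10 was at 104 CPM in CD4 T and 23.0 CPM in CD8 T cells, a log2 ratio of 2.14 (SD 2.45 between libraries, n = 4). A ratio counted as past the fold when it was at least 2-fold with at least 10 UMIs in both sums together. Il10 was the only one of the 8 genes past it, against 7.58% of the 14094 genes tested that were higher in CD4 T cells, and 0 of the 8 were lower, against 12.6% of genes. The SD includes kidney PBMC, which went the other way with 2 UMIs in all. The other 7 genes had log2 ratios of -0.64 (Tgfbr1) to 0.45 (Tgfbr2).

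The Il10 UMIs of CD4 T cells came from few cells. In the library labelled heart TIL 10 of 90 cells held the 15 UMIs, in that labelled liver TIL 5 of 87 held 15, and in liver PC 39 of 343 held 90. In the library labelled liver TIL 1 cell held 9 of them, and without it the level was 61.9 CPM. In liver PC and the library labelled heart TIL the levels without the highest cell were 117 and 109 CPM. The CD4 T gate held 4.98%, 10% and 13.4% of all Il10 UMIs of the library labelled heart TIL, that labelled liver TIL and liver PC, with 0.931%, 0.932% and 3.43% of the cells. The CD8 T gate held 52.5%, 35.3% and 65.6% of the UMIs with 46.0%, 33.4% and 61.0% of the cells. The share of UMIs in CD8 T cells was thus close to their share of cells in each library, and it was the largest part of the transcripts in the library labelled heart TIL and in liver PC. Of all cells 3473 of 9668, 3739 of 9337 and 1948 of 10000 passed no gate, and Il10 UMIs in them are in no class given here.

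To compare cells of unequal depth each was thinned to 500 UMIs. The share of CD4 T cells holding an Il10 UMI was then 5.56%, 3.45% and 5.83% in the library labelled heart TIL, that labelled liver TIL and liver PC (11.1%, 5.75% and 11.4% before thinning). Of CD8 T cells 1.66%, 0.802% and 1.79% did so, and of macrophages 0.756%, 0.659% and 0.462%. The CD4 T shares rested on 5, 3 and 20 cells. Their interval overlapped that of CD8 T cells in the library labelled heart TIL (1.828% to 12.49% beside 1.309% to 2.085%). It also did in that labelled liver TIL (0.7168% to 9.748% beside 0.5197% to 1.182%). In liver PC the intervals were apart (3.598% to 8.862% beside 1.468% to 2.15%). Stromal cells, which should lack the gene, had 0 of 86 in the library labelled liver TIL, which allows a share of up to 3.49%, at a median depth of 739 UMIs beside 933 in CD4 T cells. The CD4 T share of that library, 3.45%, was not above this limit, and the other graft libraries had 13 and 9 stromal cells, too few for a limit of their own. Barcodes under 500 UMIs, which may hold small cells as well as free RNA, had 19.3 CPM of Il10 in the library labelled heart TIL and 9.86 CPM in that labelled liver TIL.

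**Figure D2:**
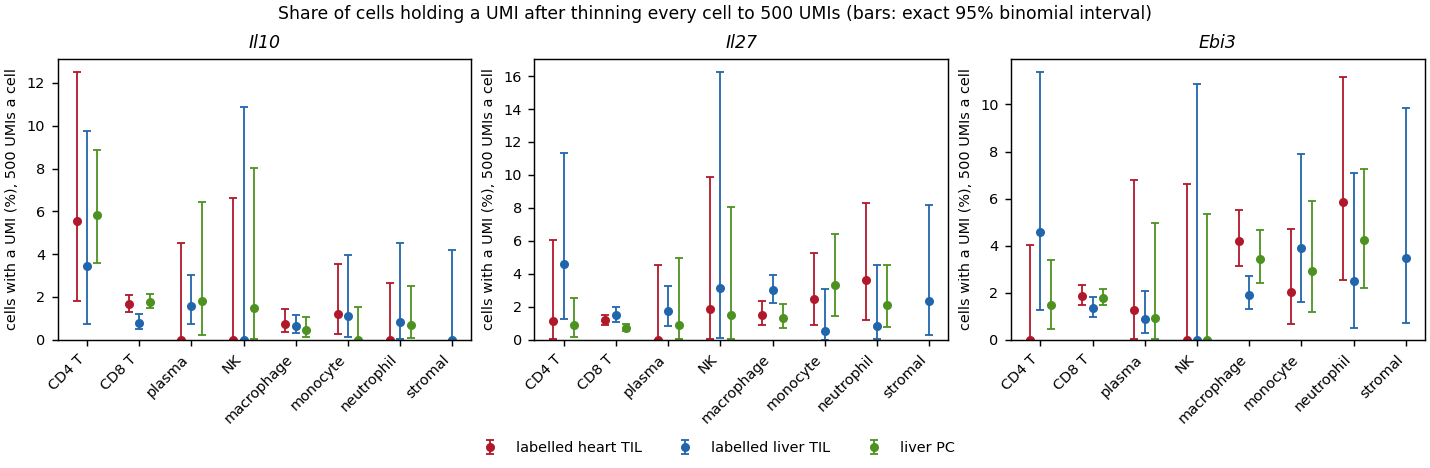
Share of cells holding an Il10, Il27 or Ebi3 UMI after each cell was thinned to 500 UMIs (vertical axes, percent) by cell class (horizontal axes) in the libraries labelled heart TIL, liver TIL and liver PC, with exact 95% binomial intervals as bars. For Il10 the highest shares were those of CD4 T cells, 3.45% to 5.83%, and for Ebi3 in the library labelled heart TIL and liver PC those of macrophages and neutrophils lay above CD8 T cells at 1.87% and 1.79%.

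Foxp3, the lineage factor of regulatory T cells, split the CD4 T cells too thinly for a comparison: liver PC had 9 Foxp3-positive CD4 T cells, described here after their values were seen. They held 13 Il10 UMIs, 10 of them in 1 cell, or 701 CPM [373 to 1199] beside 115 CPM [90.8 to 144] in the Foxp3-negative CD4 T cells. Foxp3-negative cells held the other 77 of the 90 Il10 UMIs. All 90 and 87 CD4 T cells of the libraries labelled heart TIL and liver TIL were Foxp3-negative. CD4 T cells of these libraries and liver PC held 11 Foxp3 UMIs in all. At this depth a cell without a Foxp3 UMI was not shown to lack Foxp3.

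Macrophages had little Il10. They were at 17.6, 12.1 and 9.24 CPM in the library labelled heart TIL, that labelled liver TIL and liver PC, and the ratio to CD4 T cells was 0.130, 0.0801 and 0.0707 with each interval below 1. Over these libraries the log2 ratio was -3.33 (SD 0.43, n = 3). Il10 was the 1 member of 8 lower in macrophages than in CD4 T cells, beside 14.1% of genes, and 2 of 8 were higher (Tgfbr1 and Ebi3), beside 15.7%. CD4 T cells held 1, 1 and 5 Tgfbr1 UMIs, and the Tgfbr1 intervals of both classes overlapped in each library. Ebi3 went the other way in the library labelled liver TIL, at 38.3 CPM in macrophages beside 50.4 CPM in CD4 T cells. In the library labelled heart TIL and liver PC it was at 83.8 and 76.8 CPM beside 9.05 (1 UMI) and 27.6 CPM. Plasma cells, an interleukin-10 source in some settings, were at 30.3, 24.9 and 26.0 CPM, with a log2 ratio to CD4 T cells of -2.32 (SD 0.22, n = 3). Il10 was again the 1 member of 8 lower there, beside 21.1% of genes, and 0 were higher, beside 7.24%. Plasma cell levels rested on 3, 15 and 7 UMIs and their intervals overlapped those of CD8 T cells.

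Kupffer cells, the resident macrophages of liver sinusoids, were found in the library labelled heart TIL (47 cells) and in liver PC (41 cells). They held 0 Il10 UMIs in the former, which allowed up to 57.6 CPM, and 28.8 CPM [5.94 to 84.1] in the latter. Il10ra, Tgfbr1 and Il27 were past the fold toward lower levels in Kupffer cells than in macrophages, 3 of 8 genes beside 22.3% of all genes, on 0 UMIs of each in the library labelled heart TIL, where up to 57.6 CPM was allowed, above the macrophage levels. In liver PC, with 4, 2 and 3 UMIs in Kupffer cells, the levels were 38.4 against 46.7 CPM for Il10ra, 19.2 against 19.4 CPM for Tgfbr1 and 28.8 against 38.4 CPM for Il27, so no difference was detectable at this depth. Stromal cells of the library labelled liver TIL (86 cells) were compared with its macrophages, and Il10, Il10ra and Il10rb were past the fold toward lower values, 3 of 8 beside 28.3%, and 0 of 8 were higher, beside 14.3%. These rested on 0, 2 and 4 UMIs in stromal cells, where 0 UMIs allowed up to 39.3 CPM of Il10 beside 12.1 CPM in macrophages, so a lower Il10 level was not detectable at this depth. Il10ra was at 26.2 against 65.9 CPM, with 1 inside the interval of the ratio, and Il10rb at 52.4 against 136 CPM, a ratio of 0.384 [0.104 to 0.998]. Between NK and CD8 T cells the mean levels of Il10 and Tgfbr1 were past the fold toward lower values, 2 of 8 beside 15.3%, and 0 were higher, beside 7.08%, but NK cells held 0 UMIs of each in 5 of 6 libraries, where the limit of 3 UMIs lay above the CD8 T level. In the library with UMIs, on 4 and 3 of them, NK cells were at 39.7 against 35.5 CPM for Il10 (liver PC) and 22.0 against 13.5 CPM for Tgfbr1 (liver PBMC), so no lower level can be read.

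T cells with an Il10 UMI were set against T cells of the same gate and library without one, a comparison chosen after values had been seen. Maf, a transcription factor that acts on the Il10 promoter, was at 307 CPM in the 39 Il10-positive CD4 T cells of liver PC and 205 CPM in the 304 negative ones, a log2 ratio of 0.58 [-0.08 to 1.19]. In CD8 T cells of liver PC it was at 108 against 54.6 CPM (log2 0.99 [0.65 to 1.30]). Prdm1, which encodes the repressor BLIMP-1, was at 32.1 against 18.1 CPM in the same CD8 T cells (log2 0.82 [0.19 to 1.41]). In the libraries labelled heart TIL and liver TIL, Maf in CD8 T cells had log2 ratios of 0.71 and 0.12 with intervals that held 0. Ctla4, an inhibitory receptor gene named after its values were seen, was higher in Il10-positive cells in each of these 3 libraries, by log2 2.34, 3.38 and 1.31 in CD4 T cells and 0.85, 1.32 and 0.99 in CD8 T cells, with every interval above 0. In CD4 T cells of the libraries labelled heart TIL and liver TIL this rested on 10 and 5 positive cells. The intervals count UMIs and not cells. No share of all genes is given for this contrast, so the Ctla4 values are a description only. Positive cells were also deeper, with a median of 1824 UMIs beside 1570 in CD8 T cells of liver PC, and the part of depth in these ratios was not tested.

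Tgfb1, the TGF-β1 ligand, was detected in every library. In CD4 T cells it was at 27.2, 30.2 and 21.8 CPM in the library labelled heart TIL, that labelled liver TIL and liver PC. In CD8 T cells it was at 16.9, 19.8 and 19.6 CPM, and in macrophages at 24.7, 28.2 and 32.6 CPM. The macrophage level was above that of CD8 T cells in each, though the intervals overlapped except in liver PC. Plasma cells were at 10.1, 8.30 and 22.3 CPM. In neutrophils the mean level over 5 libraries was below that of macrophages, at 16.1 against 34.9 CPM. Tgfb1 was the 1 of 8 genes past the fold, beside 7.34% of all genes, and 0 were higher, beside 7.06%. Macrophages were higher in each of these libraries, but the intervals of both classes overlapped in each. The highest macrophage level, in heart PBMC, was 48.56 CPM [10.01 to 141.9] on 3 UMIs in 25 cells. Those cells held a median of 29 neutrophil-marker UMIs. Neutrophils of the libraries labelled heart TIL and liver TIL held 1 and 2 Tgfb1 UMIs, so the fold rested in part on few UMIs. Against the median log2 ratio of all genes, -0.13, Tgfb1 was within 2-fold.

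Il27, the p28 chain, was higher in macrophages than in CD8 T cells, a contrast added after values had been seen. Macrophages were at 35.3, 59.8 and 38.4 CPM in the library labelled heart TIL, that labelled liver TIL and liver PC, and CD8 T cells at 21.3, 24.9 and 12.8 CPM. The ratios were 1.66 [1.12 to 2.42], 2.40 [1.75 to 3.30] and 3.01 [2.27 to 3.97], all above 1. Over the 7 libraries with both classes the levels were 32.4 and 12.3 CPM, a log2 ratio of 1.32 (SD 1.77, n = 7). The kidney TIL and kidney PC macrophages, 105 and 48 cells, held 0 Il27 UMIs. Monocytes were at 40.4, 22.1 and 56.8 CPM and neutrophils at 56.2, 39.4 and 40.2 CPM in the 3 graft libraries, with intervals that overlapped those of macrophages. Apobr, which shares the overlap, was also higher in macrophages of these libraries (17.6, 30.9 and 42.3 CPM) than in CD8 T cells (13.8, 18.1 and 21.6 CPM), and its part in the Il27 values was not tested.

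Ebi3, the other subunit, was also higher in macrophages than in CD8 T cells of the heart and liver graft libraries. Kidney TIL macrophages were at 43.75 CPM on 3 UMIs, beside 5.985 CPM in CD8 T cells. Kidney PC macrophages held 0 UMIs in 48 cells, which allowed up to 98.6 CPM, beside 9.29 CPM in CD8 T cells. The values that follow are those of the heart and liver graft libraries. Macrophages had 83.8, 38.3 and 76.8 CPM in the library labelled heart TIL, that labelled liver TIL and liver PC, and CD8 T cells 35.1, 25.6 and 30.3 CPM, with ratios of 2.39, 1.498 and 2.54. Neutrophils were at 144 CPM [85.6 to 228], 39.4 CPM [10.7 to 101] and 93.0 CPM [67.6 to 125]. After thinning, 4.20%, 1.92% and 3.42% of macrophages and 1.87%, 1.35% and 1.79% of CD8 T cells held an Ebi3 UMI. Of NK cells, which should lack the gene, 0 of 54, 0 of 32 and 0 of 67 did, which allow up to 5.56%, 9.38% and 4.48%, so none of these shares stood above that limit. Before thinning 2, 0 and 1 of these NK cells held an Ebi3 UMI, at 44.6, 0 and 9.92 CPM, and NK cells of heart PBMC were at 135 CPM. For Il27 the fixed background class, B cells, numbered at most 25 in these libraries and 0 of 25 in liver PC held a UMI after thinning. Before thinning 1 of them did, at 32.7 CPM, and B cells of heart and liver PBMC were at 23.2 and 26.2 CPM. Barcodes under 500 UMIs had 38.6 CPM of Il27 in the library labelled heart TIL and 52.6 CPM in that labelled liver TIL. Macrophages there were at 35.3 and 59.8 CPM of Il27. For Ebi3 these barcodes were at 70.8 CPM [35.4 to 126.7] and 59.2 CPM [35.1 to 93.5], beside 83.8 and 38.3 CPM in macrophages. The part of free RNA in the Il27 and Ebi3 levels was not tested.

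Between macrophages and CD8 T cells, 2 of the 8 genes were higher, Il27 and Tgfbr1, beside 8.07% of all genes, and 1 was lower, Il10, beside 12.9%. Macrophages held 0 Il10 UMIs in heart PBMC, liver PBMC, kidney TIL and kidney PC, where the limit of 3 UMIs lay above the CD8 T level. In the library labelled heart TIL, that labelled liver TIL and liver PC macrophages were at 17.6, 12.1 and 9.24 CPM of Il10. CD8 T cells there were at 34.6, 17.2 and 35.5 CPM, and the intervals overlapped in the library labelled liver TIL. Ebi3 missed the fold over the 7 libraries, with a log2 ratio of 0.61, and in heart PBMC it was at 130 CPM in macrophages beside 138 CPM in CD8 T cells.

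**Figure D3:**
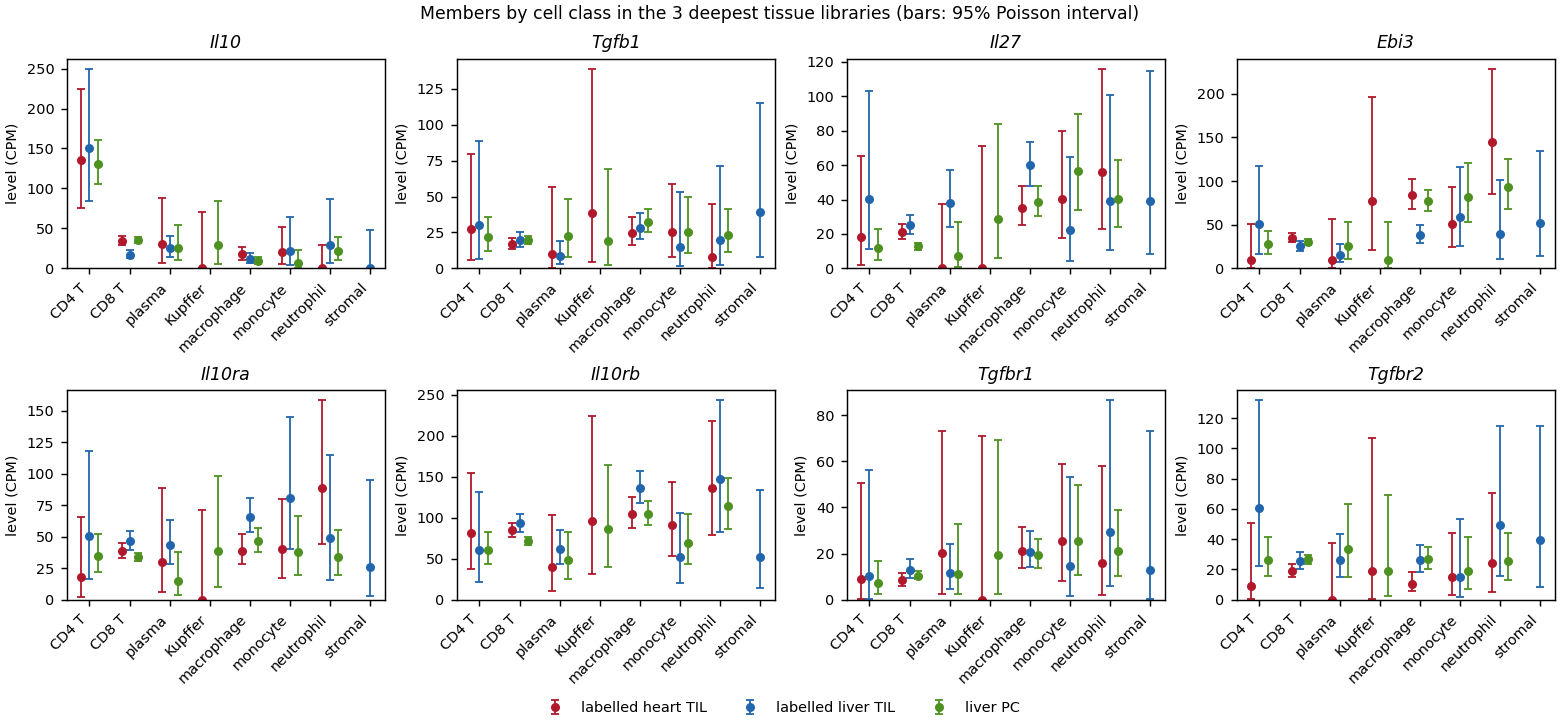
Level of each of the 8 genes in CPM (vertical axes) by cell class (horizontal axes) in the libraries labelled heart TIL, liver TIL and liver PC, with exact 95% Poisson intervals as bars. Il10 stands highest in CD4 T cells, at 131 to 151 CPM, Il27 and Ebi3 stand higher in macrophages than in CD8 T cells, and Tgfb1 lies between 8.03 and 39.3 CPM in the 8 classes drawn (NK and B cells are not drawn).

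Cells holding both an Il27 and an Ebi3 UMI were few. Liver PC had 45 of 10000 cells, where the product of both shares gives 23.8, and the library labelled heart TIL had 21 of 9668, where it gives 10.2. The library labelled liver TIL had 20 beside 7.91, heart PBMC had 41 beside 26.9 and liver PBMC had 8 beside 8.48. Deeper cells hold more UMIs of any gene, and the part of depth in these counts was not tested.

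In blood, Ebi3 was higher in the heart recipients. Neutrophils of heart PBMC were at 237 CPM [223 to 252] and those of liver PBMC at 65.0 CPM, a log2 ratio of liver over heart of -1.87 [-2.08 to -1.66]. Kidney PBMC neutrophils were at 29.4 CPM on 4 UMIs. In heart PBMC the other classes were also high, with monocytes at 187, B cells at 172 and CD8 T cells at 138 CPM, and barcodes under 500 UMIs were at 223 CPM. The median CD8 T cell of heart PBMC held 24 neutrophil-marker UMIs, beside 4 in liver PBMC. Neutrophils and monocytes of heart PBMC held medians of 30 and 29 such UMIs. The 4 further neutrophil genes were above the other cells in heart and liver PBMC, 0 of them by 2-fold. In heart PBMC 1224 of 7772 cells and in liver PBMC 2503 of 6822 passed more than 1 gate and were counted in each. The part of free RNA in the blood levels was not tested. In liver PBMC monocytes, B cells and CD8 T cells were at 50.5, 44.2 and 40.5 CPM, and barcodes under 500 UMIs at 75.6 CPM. Neutrophils of liver PBMC also had more Il10ra (48.4 against 22.6 CPM) and more Tgfb1 (20.9 against 8.37 CPM) than those of heart PBMC, so that 3 of 7 genes tested were past the fold, beside 21.4% of all genes. The median gene was itself higher by log2 0.38 in liver PBMC, and against that shift Il10ra and Tgfb1 were within 2-fold.

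**Figure D4:**
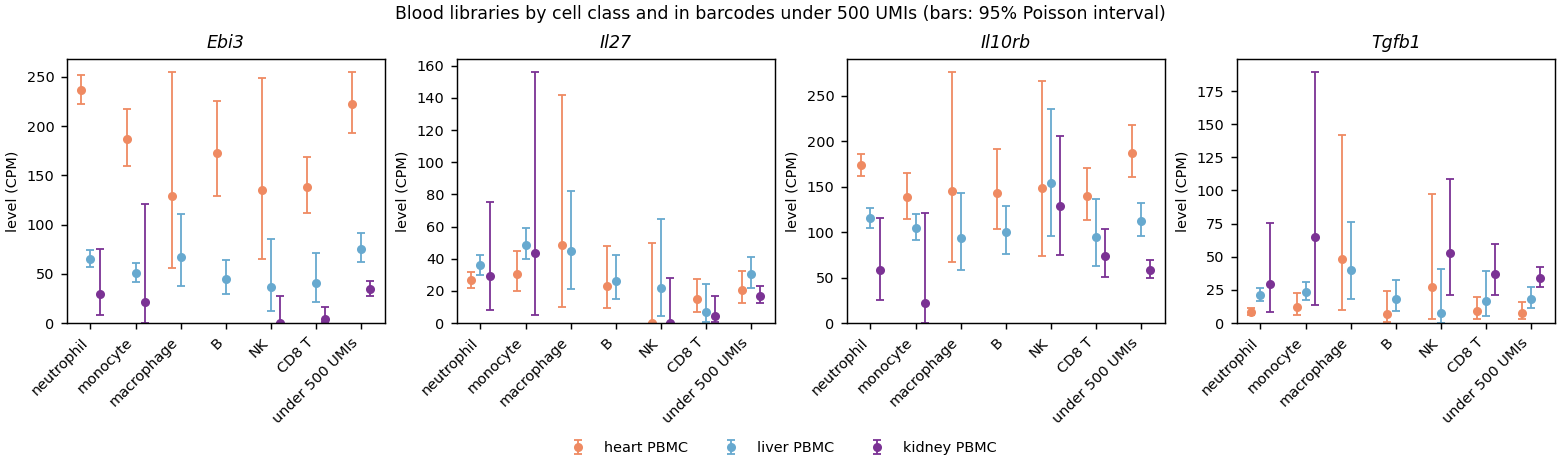
Levels of Ebi3, Il27, Il10rb and Tgfb1 in CPM (vertical axes) by cell class and in barcodes under 500 UMIs (horizontal axes) in the PBMC libraries of heart, liver and kidney recipients, with exact 95% Poisson intervals as bars. Ebi3 in heart PBMC, 138 to 237 CPM in neutrophils, monocytes, B and CD8 T cells, lies above liver PBMC in each of these classes and also in barcodes under 500 UMIs.

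Il10ra, the ligand-binding receptor chain, was spread over leukocytes. CD4 T cells had 18.1, 50.4 and 34.9 CPM in the library labelled heart TIL, that labelled liver TIL and liver PC, CD8 T cells 38.8, 46.3 and 33.7 CPM, and macrophages 38.8, 65.9 and 46.7 CPM. The macrophage level was above that of all other cells, by the interval of the ratio, in 2 of 7 libraries, and the CD4 T cell level in 0 of 4. Il10rb, the shared chain, was at 81.4, 60.5 and 61.0 CPM in CD4 T cells, 84.9, 93.3 and 72.0 CPM in CD8 T cells, and 105, 136 and 105 CPM in macrophages. Its ratio of macrophages to CD8 T cells was 1.24, 1.46 and 1.46. Macrophages were higher in 6 of 7 libraries, and the mean over the 7 was within the fold. In kidney TIL they were at 87.5 against 25.1 CPM, on 6 UMIs in macrophages. In kidney PC they were at 65.75 against 27.9 CPM, on 2, and both were more than 2-fold apart. Neutrophils of the graft libraries were at 136, 148 and 114 CPM of Il10rb.

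Tgfbr1, the type I receptor, was low everywhere. Macrophages had 21.2, 20.8 and 19.4 CPM in the library labelled heart TIL, that labelled liver TIL and liver PC, and CD8 T cells 8.55, 12.96 and 10.5 CPM. The ratios were 2.48 [1.42 to 4.22], 1.61 [0.97 to 2.64] and 1.85 [1.27 to 2.66], of which the second included 1. Over 7 libraries the log2 ratio was 1.23 (SD 1.21, n = 7), and it fell to 0.91, under the fold, without kidney PC, where it rested on 48 macrophages. Tgfbr2, the type II receptor that binds the ligand, was at 9.05, 60.5 and 26.2 CPM in CD4 T cells, 18.9, 25.3 and 26.7 CPM in CD8 T cells and 10.6, 26.2 and 26.8 CPM in macrophages. The intervals of CD4 and CD8 T cells overlapped in each of the 3 libraries.

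The 58 further genes of both pathways, which include ligands, latency proteins, signal transducers and targets, were counted in the same contrasts. Of 48 with enough UMIs, 6 were higher and 5 lower in CD4 T than in CD8 T cells, beside 7.58% and 12.6% of all genes, with a median log2 ratio of 0.07 beside -0.09 over all genes. The highest was Tgfbr3, a co-receptor, at 8.73 against 0.358 CPM, on 2 UMIs in CD4 T cells, and without kidney PBMC, which held 1 of them and was left out after values had been seen, the levels were 0.484 and 0.478 CPM. Next were Maf (147 against 38.8 CPM, 181 UMIs in CD4 T cells) and Il12rb2, an interleukin-12 receptor chain that interleukin-35 also uses (14.6 against 4.55 CPM, 23 UMIs). The lowest were Smad4, the common SMAD (1.09 against 4.82 CPM), Il23a (0.363 against 2.90 CPM) and the ubiquitin ligase gene Smurf1 (0.726 against 3.98 CPM). These rested on 3, 1 and 2 UMIs in CD4 T cells of 1 library, with 0 in the other 3, where the depth could not show a level as low as that of CD8 T cells. Without kidney PBMC, Smurf1 was within the fold, with a log2 ratio of -0.72.

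Of 49 pathway genes compared between macrophages and CD8 T cells, 5 were higher and 5 lower, beside 8.07% and 12.9% of all genes, with a median log2 ratio of 0.23 beside -0.18 over all genes. Tgfbi, a TGF-β-induced matrix protein gene, was at 1001 against 279 CPM and the type I receptor gene Acvrl1 at 59.1 against 18.3 CPM. Il12a, the p35 chain, was at 3.08 against 0.741 CPM, on 8 UMIs in macrophages of 4 libraries. The lowest were Il12rb2 (1.19 against 4.23 CPM), Foxp3 (0.391 against 3.80 CPM) and Il27ra, the interleukin-27 receptor chain (2.24 against 18.2 CPM). These rested on 14, 4 and 23 UMIs in macrophages of 3, 2 and 3 libraries. Il27 and Il27ra therefore stood on opposite sides of this contrast. Against CD4 T cells, macrophages had Il27ra at 5.23 CPM beside 33.0 CPM. Stromal cells of the library labelled liver TIL had more Lrrc32, which tethers latent TGF-β (118 against 0.672 CPM, 10 UMIs), more Ltbp4, a latent TGF-β binding protein gene (91.7 against 2.69 CPM), and more Pmepa1, a feedback gene (65.5 against 6.05 CPM), than macrophages, on 9, 7 and 5 UMIs in stromal cells. Of 30 list genes tested there, 8 were higher, beside 14.3% of all genes, and 8 lower, beside 28.3%.

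Across organs, the members were compared within CD8 T cells, present in all 8 libraries. Of the graft libraries, that labelled heart TIL had 34.6 CPM of Il10, that labelled liver TIL 17.2 CPM, kidney TIL 2.39 CPM, liver PC 35.5 CPM and kidney PC 9.29 CPM. In blood it was at 5.94 CPM (4 UMIs), 0 (up to 10.1 CPM allowed) and 4.60 CPM (2 UMIs) for heart, liver and kidney recipients. Il10 had no row in the liver PBMC table and was taken as 0 UMIs there. Il10 was thus high in the heart and liver graft libraries and near the counting limit in blood and in both kidney graft libraries. Over all cells it was at 32.9, 18.2 and 35.0 CPM in the libraries labelled heart TIL, liver TIL and liver PC. In kidney TIL and kidney PC it was at 2.03 and 4.04 CPM. By the interval of the ratio CD8 T cells were above the other cells in 0 of 8 libraries and below them in 0. These differences were thus not particular to CD8 T cells. The ratio of graft to blood in CD8 T cells was 5.83 [2.23 to 21.7] for the library labelled heart TIL over heart PBMC, and 2.89 [1.06 to 11] with the labels exchanged. Against the level of 3 UMIs in liver PBMC, liver PC was at least 3.51-fold higher and the library labelled liver TIL at least 1.70-fold higher (3.42-fold with the labels exchanged). The exact conditional lower bounds of these ratios were 2.85, 1.33 and 2.75.

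The library labelled liver TIL had less Il10 in CD8 T cells than that labelled heart TIL, with a ratio of 0.496 [0.356 to 0.681] whose direction turns if the labels are exchanged. With 1 CPM added to both it was just within the fold, as were the other members, so 0 of 8 genes were past it beside 9.42% of all genes. Both libraries were above kidney TIL. For the library labelled liver TIL over kidney TIL the ratios were 7.17 [1.89 to 60.8] for Il10, 7.74 [3.24 to 24.2] for Il10ra, 3.71 [2.38 to 6.09] for Il10rb, 20.8 [3.63 to 834] for Il27 and 4.28 [1.76 to 13.5] for Ebi3, 5 of 8 genes beside 31.3% of all genes. With the labels exchanged the same 5 genes were past the fold, at 14.5, 6.49, 3.38, 17.8 and 5.86. Tgfb1 had a ratio of 0.612 [0.383 to 1.001] and was the member with the most UMIs in kidney TIL CD8 T cells, 27 UMIs at 32.3 CPM. The median CD8 T cell held 3 macrophage-marker UMIs in the libraries labelled liver TIL and heart TIL and 0 in kidney TIL. The part of macrophage RNA in the ratios to kidney TIL was not tested.

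The solid organ libraries gave 6 of 8 genes past the fold between liver PC and kidney PC, beside 45.4% of all genes. Of these, Il10 (ratio 3.83 [1.05 to 31.7]), Il10rb (2.58 [1.18 to 7.06]) and Tgfbr2 (5.74 [1.02 to 227]) had intervals above 1, and kidney PC held 2, 6 and 1 UMIs of them. The intervals of Il27 and Ebi3, also higher in liver PC, held 1. The median CD8 T cell held 3 macrophage-marker UMIs in liver PC and 1 in kidney PC. The part of macrophage RNA in these ratios was not tested. Tgfb1 was past the fold in the other direction, at 19.6 CPM in liver PC and 41.8 CPM in kidney PC (ratio 0.470 [0.243 to 1.04], 9 UMIs in kidney PC), and its direction turned with 1 more marker in each gate, from a log2 ratio of -1.053 to 0.175 with 1 CPM added. Between liver PBMC and heart PBMC, CD8 T cells differed in 2 of 6 genes, Il27 and Ebi3, beside 21.4% of all genes, of which Ebi3, at 0.293 [0.146 to 0.537], had an interval below 1. The median CD8 T cell held 4 neutrophil-marker UMIs in liver PBMC and 24 in heart PBMC, and their part in the Ebi3 ratio was not tested. Between liver PBMC and kidney PBMC 4 of 5 genes were past the fold, beside 26.1%. They were Il10ra, Tgfb1, Tgfbr2 and Ebi3, and Ebi3 alone, with 12 and 2 UMIs, had an interval above 1.

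CD8 T cells of the library labelled heart TIL and of heart PBMC differed in 3 of 8 genes, beside 34.2% of all genes: Il10 and Tgfbr1 were higher in the former and Ebi3 lower, at 0.254 [0.196 to 0.332]. With the labels exchanged 4 of 8 were past the fold, beside 33.1%, the same 3 and Tgfb1, with Ebi3 at 0.185 [0.136 to 0.253]. The median CD8 T cell held 24 neutrophil-marker UMIs in heart PBMC and 0 in the libraries labelled heart TIL and liver TIL. Neutrophils of heart PBMC were at 237 CPM of Ebi3 and its barcodes under 500 UMIs at 223 CPM. The part of neutrophil or free RNA in these Ebi3 ratios was not tested. For the library labelled liver TIL over liver PBMC 2 of 8 genes were past the fold, Il10 and Il27, beside 31.8%. With the labels exchanged Tgfbr2 was past it too, at a lower level in the graft, 3 of 8 beside 37.5%. For liver PC over liver PBMC it was 1 of 8, Il10, beside 35.9%. In kidney recipients Il10ra and Il10rb were lower in TIL than in PBMC, 2 of 5 genes beside 27.2%, with Il10rb at 0.341 [0.187 to 0.611]. Il10rb and Tgfbr2 were lower in kidney PC than in kidney PBMC, 2 of 4 genes beside 32.8%. The interval of the ratio held 1 for Tgfbr1 in the library labelled heart TIL, Il27 in that labelled liver TIL, Il10ra in kidney TIL and Tgfbr2 in kidney PC. The median log2 ratio of all genes was 0.40 for the library labelled heart TIL over heart PBMC, 0.10 for that labelled liver TIL and 0.29 for liver PC over liver PBMC, so that Tgfbr1 in the first was within 2-fold of the shift. It was 0.39 for the first with the labels exchanged, where Il10 and Tgfb1 were within 2-fold of it, and 0.41 for liver PC over kidney PC, where Il10rb and Il27 were. With 4 to 8 genes tested in each, no more was read from these counts.

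**Figure D5:**
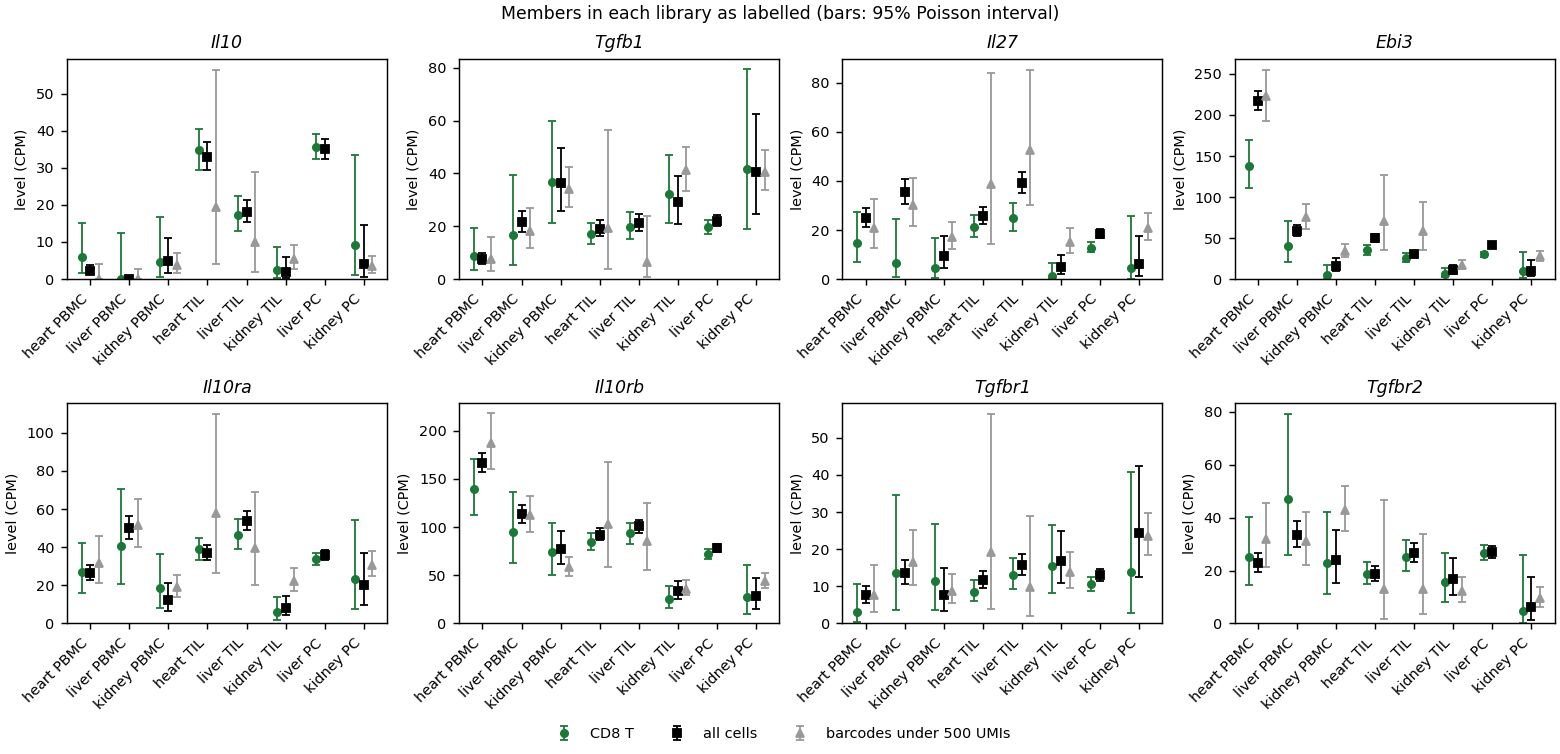
Level of each of the 8 genes in CPM (vertical axes) in each library as labelled (horizontal axes) for CD8 T cells (green circles), all cells (black squares) and barcodes under 500 UMIs (grey triangles), with exact 95% Poisson intervals as bars. Il10 is high in the libraries labelled heart TIL, liver TIL and liver PC, Ebi3 in heart PBMC, and Il10rb lowest in kidney TIL and kidney PC.

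Over all cells of a library Tgfb1 and the IL-10 receptor chains were ordered differently. Tgfb1 ranged from 7.56 CPM in heart PBMC to 40.4 CPM in kidney PC, and it was higher in the kidney libraries (29.1 CPM in TIL and 36.3 CPM in PBMC) than in the other 5 (7.56 to 22.2 CPM). Il10rb took the other order, from 166 CPM in heart PBMC and 113 CPM in liver PBMC to 33.8 CPM in kidney TIL and 28.3 CPM in kidney PC. Il10ra was lowest in kidney TIL at 8.11 CPM and highest in the library labelled liver TIL at 53.9 CPM. Tgfbr1 was, like Tgfb1, lowest in heart PBMC (7.56 CPM) and highest in kidney PC (24.3 CPM), and Tgfbr2 ranged from 6.07 CPM in kidney PC to 33.5 CPM in liver PBMC. Barcodes under 500 UMIs also had more Tgfb1 in the kidney libraries, at 34.1 to 41.1 CPM, than in the 4 others that held such barcodes, at 6.58 to 19.3 CPM. In mixed libraries fewer cells of a type and less RNA per cell cannot be told apart.

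For each member, the genes whose level was most alike over 40 sums of a class in a library were found by Pearson's r of log2(CPM + 5), as a description, since the sums share libraries and depth. Il10 was most like Snord118 (r = 0.80), Prdm1 (0.80) and Hist1h4m (0.77), and Ebi3 most like Ncf4 (0.87), Lpcat2 (0.85) and Eif4ebp1 (0.84). Il27 was nearest to Slc16a3, Tarm1 and Ltb4r1, with 0.77 for the first. Il10rb was nearest to Plek, C5ar1 and Ostf1, with 0.82 for the first. The lists of the other 4 members began at 0.69 to 0.74: Ifi209, Ppm1m and Mknk1 for Il10ra, Sept2, Mocs2 and Decr1 for Tgfb1, Pqlc2, Plekho1 and Ski for Tgfbr1, and Picalm, Sp1 and D730003I15Rik for Tgfbr2.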

How the data were processed

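Tissue and blood suspensions of mouse allografts were sequenced by Microwell-seq, and the deposited tables hold whole-number UMI counts per gene and barcode, as the authors made them with the Drop-seq tools after alignment. The submitters' processing notes name bcl2fastq, STAR and GRCm38, and per the methods STAR mapped with default parameters. Barcodes with at least 500 UMIs were kept and no doublet caller was run. Cells passing 2 gates were kept in each. Counts were summed per class and library, divided by the summed UMIs and given as CPM with exact 95% Poisson or binomial intervals. A ratio between classes used the mean CPM over libraries with at least 20 cells in both classes and 1 CPM added, and a ratio of 2-fold with at least 10 UMIs in both sums was counted. With 1 library per condition no test was made. Libraries held 3418722 to 19171264 UMIs. The 8 members were named in every class, of the 58 pathway genes the 3 highest and the 3 lowest per contrast, and per member the 3 genes most alike. The members and lists were chosen with earlier results of these data known. Thinning drew 500 UMIs from each cell with a fixed seed. The alternatives tried were other limits on UMIs, mitochondrial share, cell number and fold, stricter gates, cells of a lone gate, summed counts, the labels exchanged and each library left out. The scripts, tested on simulated data, used Python 3.11.15, numpy 2.4.6, scipy 1.17.1, pandas 2.3.3 and matplotlib 3.10.9.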

Additional observations from a re-analysis of the deposited data

Results flagged for a closer look

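The graft to blood ratio of Ebi3 had opposite signs in some of the libraries. The library labelled heart TIL had less Ebi3 than heart PBMC in monocytes, with a log2 ratio of -1.887, and in neutrophils, with -0.714. The median monocyte of heart PBMC held 29 neutrophil-marker UMIs, beside 30 in its neutrophils. Monocytes of the library labelled heart TIL held a median of 0. Liver PC had more Ebi3 than liver PBMC, with 0.698 in monocytes and 0.516 in neutrophils. Each of these 4 intervals lay on its own side of 0, though only the ratio of -1.887 was past 2-fold. For liver PC over liver PBMC the median log2 ratio of all genes was 0.14 in monocytes and 0.19 in neutrophils. Both values lay inside the Ebi3 intervals [0.02 to 1.327 and 0.018 to 0.985], so no rise beyond this shift can be read. The blood monocyte and neutrophil gates also shared cells, so their ratios are not independent. The other classes showed no detectable difference between liver PC and liver PBMC, while over all cells liver PC was lower. Over all cells it was at 41.7 against 58.8 CPM, with a log2 ratio of -0.49 [-0.68 to -0.30], in CD8 T cells at 30.3 against 40.5 CPM, with an interval that held 0, in NK cells at 9.92 against 36.7 CPM on 1 and 5 UMIs, and in B cells at 0 UMIs in 25 cells, which allowed up to 98.0 CPM, against 44.2 CPM, so that a lower level in B cells was not detectable. Macrophages alone of these were higher, at 76.8 against 67.1 CPM, with an interval that held 0. The library labelled liver TIL over liver PBMC was at 0.22 in monocytes and -0.72 in neutrophils, with intervals that held 0. With the TIL labels exchanged the ratios to heart PBMC were -1.67 in monocytes and -2.59 in neutrophils, and that to liver PBMC was 1.15 in neutrophils, while in monocytes the levels were 50.5 and 50.5 CPM. The difference between the organs was not tested, it sets TIL beside PC, and heart PBMC had 223 CPM of Ebi3 in barcodes under 500 UMIs.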

How the results depend on the processing

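No paired analysis was possible because each condition was 1 library and no test was made. Of the 86 recomputed values of the 7 main ratios, 0 changed direction and 4 moved by more than the spread: Il10 in macrophages over CD4 T cells was -3.971 (log2) with 1 more marker in each gate, and Ebi3 in neutrophils of liver over heart PBMC was -2.362 in cells with at least 1000 UMIs, -1.627 in cells of a lone gate and -1.653 with 1 more marker. The CD4 over CD8 T ratio of Il10 stayed between 1.605 and 2.37, and leaving out each library in turn gave 1.793 (without the library labelled liver TIL) to 2.287. The same step gave -3.605 to -3.186 for Il10 in macrophages over CD4 T cells, 1.135 to 1.473 for Il27 and 0.913 to 1.454 for Tgfbr1 in macrophages over CD8 T cells. Tgfbr1 fell under the fold without kidney PC, and its lowest value was 0.796. Neither counted as moved, so the count of 4 does not mean that every other value kept its call. Of 1943 recomputed values of 226 other ratios, 106 moved and 4 changed direction. Exchanging the labels of the heart and liver TIL libraries gave -1.233 for Tgfbr2 and 1.108 for Ebi3 in macrophages and 1.849 for Ebi3 in neutrophils, as that step must. With 1 more marker Tgfb1 in CD8 T cells of liver over kidney PC, reported at -1.053, was 0.175, and the cause was not tested. Alternatives that left a sum at 0 UMIs, and the Foxp3, endothelial and dendritic contrasts, with too few cells, gave no value. Depth limits CD8 T cells most in kidney PC and liver PBMC, with 215289 and 296416 UMIs in all.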
